A study of Drosophila melanogaster with 6 samples.

Results

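The amylase genes of *Drosophila melanogaster*, *Amy-p*, *Amy-d* and *Amyrel*, were examined in TRAP (translating mRNA affinity purification) libraries from *Pcl* mutant flies fed a control diet (CD) or a sugar diet (SD). The 3 genes were taken by their FlyBase symbols, and they are 3 of the 17489 genes in the count tables. All flies were males of the genotype Gr5a:Pclc429>UAS-Rpl3-3XFLAG, in which the *Gr5a* driver expresses FLAG-tagged ribosomal protein in sweet taste neurons and *Pcl*, the accessory subunit of the Polycomb complex PRC2.1, carries the c429 mutation. The labels do not say whether the input or the anti-FLAG fraction of the lysate was sequenced. Since CD and SD flies both carry the mutation and the tag, the comparison is of diet within the mutant. Flies ate 5% sucrose (CD) or 30% sucrose (SD) from day 5 to day 12 of adult life, for 7 days, and there were 3 replicates per diet, each a pool of 300 heads. The libraries held 12617127 to 24076315 counts on the sense strand of genes.

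Alpha-amylases cut starch and glycogen into maltose and short glucose chains, which maltases then split into glucose. In flies amylase is made chiefly in the midgut and secreted into its lumen, and its expression is known to be lowered by dietary sugar, a response called glucose repression. *Amy-p* (proximal) and *Amy-d* (distal) are near-identical copies of the digestive enzyme gene. *Amyrel* is a diverged paralog that encodes an amylase of related activity.

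The copies *Amy-p* (FBgn0000079) and *Amy-d* (FBgn0000078) lie on chromosome 2R in dm6 coordinates, at 17118636 to 17120303 on the minus strand and at 17124764 to 17126369 on the plus strand. Each is a single exon, 1668 and 1606 bases long, and the gap between them is 4460 bases. Their annotated coding regions are equal in length at 1485 bases, or 494 codons, and their annotated untranslated regions differ, with 33 and 36 bases at the 5′ end and 77 or 150 bases against 85 bases at the 3′ end. *Amyrel* (FBgn0020506; chromosome 2R, 16651095 to 16652699, minus strand) has 2 exons, an intron of 56 bases and 493 codons. The annotation lists no gene over the exons of *Amy-p* or *Amy-d*, whereas the last 31 bases of *Amyrel* overlap the end of *gprs* on the other strand.

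Because *Amy-p* and *Amy-d* are near-identical, a read that matches both equally is counted as multimapping and enters neither gene. Between 4251887 and 8064375 reads per library were multimapping, 14.5 to 18.5% of all reads, and no file tells which of them came from amylase. The counts below are therefore of reads that differ between the copies or cover sequence particular to 1 of them. They leave out the reads that match both copies equally, and the share lost was not measured. Whether the copies in these flies match the reference was not checked, so reads of 1 copy could be placed on the other. The multimapping share differed 1.28-fold between the highest and lowest libraries, and the summed normalized count of the pair 4.96-fold. Each library held at least 4725 multimapping reads per count of the pair, so that share cannot show a change in amylase reads. The part of multimapping in the spread was not tested.

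The libraries were checked against markers of the labelled cells and of other tissues, as normalized counts, which are counts divided by the DESeq2 size factors that bring libraries of different depth to 1 scale. The 8 sweet receptor genes summed to 7.44 to 43.3 normalized counts per library, with *Gr64b*, *Gr64c*, *Gr64d* and *Gr64e* at 0 in each. In the annotation *Gr64b* and *Gr64c* share 1 span and strand, and *Gr64e* lies within *Gr64d* on the same strand. A read over exons of both genes enters neither, so these values of 0 do not show absence. By contrast, 7 photoreceptor markers, led by *ninaE*, summed to 535602 to 784099 and 5 neuronal markers, led by *nSyb*, to 79187 to 94837. No value here therefore assigns amylase to the *Gr5a* neurons. Markers of male accessory gland, led by *Acp36DE*, were called higher on SD in 9 of 9 genes, against 14.0% of all tested genes, their sum being 7.56 to 57.03 normalized counts on CD and 1416 to 3924 on SD. Markers of testis, led by *dj*, were called higher in 10 of 10, with sums of 24.2 to 55.1 and 1595 to 4952. In the CD libraries, although labelled male, the female yolk protein gene *Yp1* had 117.2, 21747 and 2363 normalized counts, and at most 44.6 on SD. Without CD replicate 2, which had the most, the log2 fold change was 0.46 for *Amy-p* and 0.12 for *Amy-d*, and neither was called (DESeq2 q = 0.963 and 0.992). In the CD replicates kept, *Yp1* still exceeded every SD library, so this fit does not separate diet from the yolk protein difference. Of 6 tested fat body markers 4 (*Apoltp*, *Yp1*, *Yp2* and *Yp3*) were called lower on SD, against 0.54% of all tested genes. *Apoltp* had a log2 fold change of −0.21. The others are yolk protein genes, each highest in CD replicate 2, for which fat body and female material cannot be told apart. With *apolpp*, which had the most counts and was not called, the list summed to 175418 to 265405 on CD and 137628 to 208380 on SD. In such bulk samples, fewer cells of a type, less RNA per cell and other material in the pools cannot be told apart. Why markers of testis and accessory gland were counted in pools of heads was not tested.

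The count of *Amy-p* was 568, 189 and 89 reads in CD replicates 1 to 3 and 719, 154 and 299 in SD replicates 1 to 3. These were 443.7, 285.8 and 87.6 normalized counts on CD and 668.4, 144.4 and 289.6 on SD. SD replicate 1 was highest and CD replicate 3 lowest, and the values of the diets overlapped. The mean was 272.4 ± 178.4 on CD and 367.5 ± 270.6 on SD (standard deviation of replicates, as after each ± marked SD of replicates, n = 3 each). The difference, sugar diet minus control diet, was 0.43 ± 0.85 on the log2 scale (SE; 95% interval −1.23 to 2.10). The adjusted p of the DESeq2 Wald test over all genes, q, was 0.934, where q under 0.1 was called.

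*Amy-d* had counts of 519, 202 and 154 on CD and 558, 168 and 243 on SD. Its normalized counts were 405.4, 305.5 and 151.6 on CD and 518.7, 157.5 and 235.4 on SD, so that replicate 1 was again highest within each diet and the diets overlapped. The mean was 287.5 ± 127.9 on CD and 303.9 ± 190.1 on SD (SD of replicates, n = 3 each). The log2 fold change was 0.08 ± 0.63 (SE; 95% interval −1.16 to 1.32), with a DESeq2 q of 0.991. When the copies were summed before the fit, the log2 fold change was 0.26 ± 0.74 (SE), with a DESeq2 q of 0.962 and an interval of 0.441-fold to 3.26-fold. Leaving out CD replicate 3 or SD replicate 1 turned the sign, to −0.0012 and −0.33 for *Amy-p*, −0.24 and −0.55 for *Amy-d* and −0.11 and −0.44 for their sum.

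**Figure D1:**
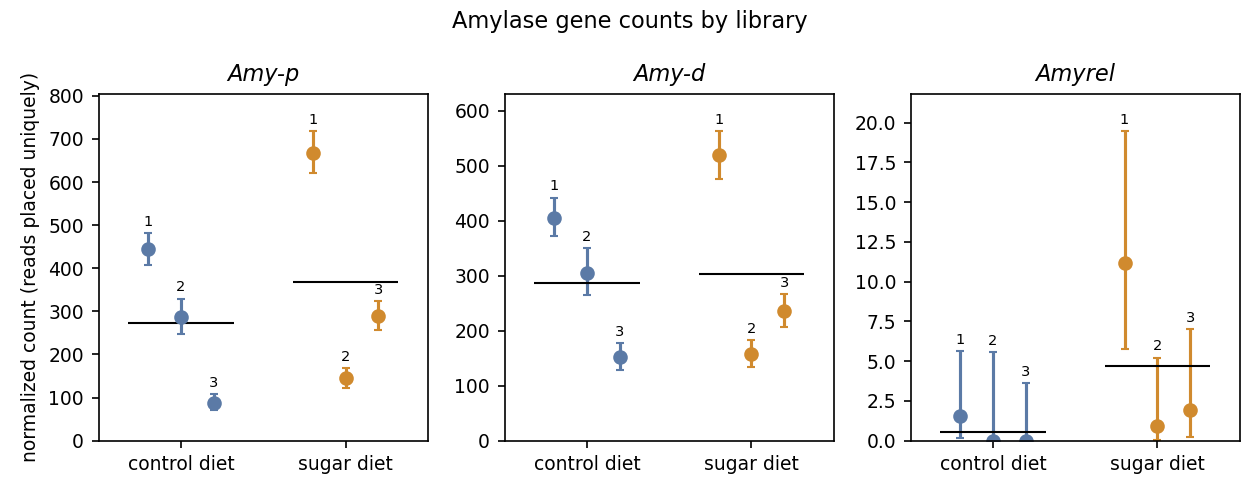
Normalized counts of *Amy-p*, *Amy-d* and *Amyrel* (vertical axis, from 0, a separate scale for each gene) in the 3 CD and 3 SD libraries; points are libraries labelled with their replicate number, bars are exact 95% Poisson intervals that cover counting error only, and lines are diet means. SD replicate 1 is highest for each gene, and for *Amy-p* it reaches 668.4 against 144.4 in SD replicate 2.

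The spread of the pair within a diet was far larger than counting error. For *Amy-p* the exact Poisson interval was 408.0 to 481.8 normalized counts in CD replicate 1 and 70.3 to 107.8 in CD replicate 3, and for SD replicates 1 and 2 it was 620.4 to 719.1 and 122.5 to 169.1. The highest library exceeded the lowest 5.07-fold on CD and 4.63-fold on SD for *Amy-p*, and 2.68-fold and 3.29-fold for *Amy-d*. The standard deviation of log2(normalized count + 1) within a diet was 1.15 for *Amy-p* and 0.80 for *Amy-d*, while the median was 0.16 over the 4863 genes with a mean of 100 to 1000 normalized counts. Of those genes, 98.95% were no more variable than *Amy-p* and 97.2% no more variable than *Amy-d*.

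The copies had similar counts of uniquely placed reads and the same order of libraries within each diet. The length of each copy that can take such reads was not measured, so the expression levels of the copies cannot be compared. As RPKM, the count scaled to exon length and library total, *Amy-p* was at 8.72 ± 5.56 on CD and 12.9 ± 8.8 on SD, and *Amy-d* at 9.62 ± 3.99 and 11.1 ± 6.3 (SD of replicates, n = 3 each), levels that do not include the multimapping reads. *Amy-p* held 52.3%, 48.3% and 36.6% of the reads assigned to the pair in CD replicates 1 to 3 and 56.3%, 47.8% and 55.2% in SD replicates 1 to 3. The lowest share, in CD replicate 3, came from 243 reads and had an exact Clopper-Pearson 95% interval of 30.6 to 43.0%, and the highest, in SD replicate 1, from 1277 reads with an interval of 53.5 to 59.0%. The mean share was 7.36 percentage points higher on SD, and the diets overlapped (two-sided exact permutation p = 0.3, where 3 against 3 libraries cannot go below 0.1).

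**Figure D2:**
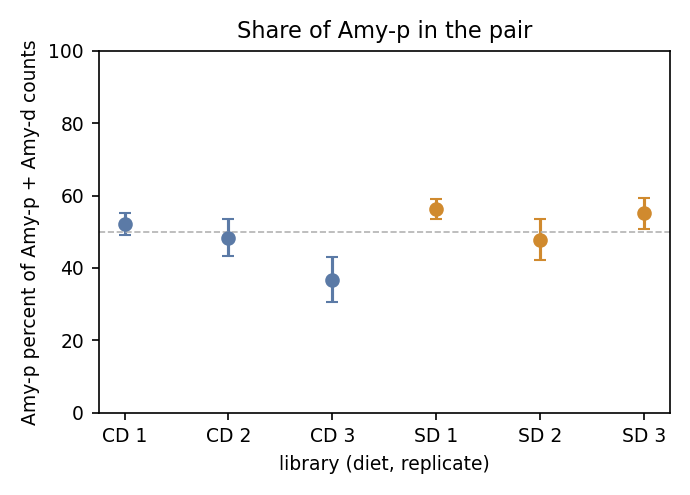
Share of *Amy-p* in the summed counts of *Amy-p* and *Amy-d* (percent, axis from 0 to 100) in each library, with exact 95% binomial intervals for counting error; blue is CD, orange is SD and the dashed line marks equal counts. The share lies between 36.6% and 56.3% and the diets overlap.

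*Amyrel* was barely detected, with no more than 3 counts, the floor used here, in 5 of 6 libraries. Its sense count was 2, 0 and 0 in CD replicates 1 to 3 and 12, 1 and 2 in SD replicates 1 to 3, so that only SD replicate 1 stood above the floor. At these depths a count of 0 allows up to 3 counts as a one-sided limit, or 0.238 and 0.171 CPM in CD replicates 2 and 3, and up to 3.69 counts in the two-sided Poisson interval drawn in the plot of normalized counts. The summed count was 15 on SD and 2 on CD, a ratio of 6.99 per size factor with an exact 95% interval of 1.62 to 63.0 that covers counting error only and rests on SD replicate 1, without which the SD libraries held 3 counts. Across libraries the fit gave 2.93 ± 1.99 (log2, SE), with a DESeq2 q of 0.534, and no diet difference was detectable. Its RPKM was 0.0179 ± 0.0310 on CD and 0.173 ± 0.202 on SD (SD of replicates, n = 3 each), against 8.72 and 12.9 for *Amy-p*.

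More reads lay on the strand opposite to *Amyrel* than on its own. The opposite-strand count was 47, 22 and 27 on CD and 30, 29 and 28 on SD, 183 in all against 17 sense counts. That strand carries *gprs*, whose annotated end reaches into *Amyrel* and which had a mean of 1667 normalized counts on CD and 1594 on SD. Counted without regard to strand, *Amyrel* had 3, 1 and 4 reads on CD and 13, 0 and 8 on SD. A read over exons of both genes enters neither in such a count. For *Amy-p* and *Amy-d* together, the opposite-strand count was 40 against 3862 sense counts.

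The response of *Amyrel* was also set directly against that of the pair. The log2 ratio of *Amyrel* to summed *Amy-p* and *Amy-d* counts, with 0.5 added to each, averaged −9.10 ± 0.45 on CD and −7.40 ± 0.62 on SD (SD of replicates, n = 3 each), a difference of 1.71. On sense counts the diets did not overlap in this ratio (two-sided exact permutation p = 0.1, the smallest that 3 against 3 libraries allow). On unstranded counts the difference was 0.06 (two-sided exact permutation p = 1), so the ratio depends on the strand setting. A higher ratio in every SD library was found for 11.9% of all tested genes, and with *Amyrel* at 0 to 2 counts in 5 libraries the ratio there depends on the added 0.5.

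To place these values in their pathway, the 12 listed enzymes downstream of amylase or of the circulating sugar trehalose were read from the same fit. Of these, 7 were called and all 7 were higher on SD, against 14.0% of all 14254 tested genes called higher and 0.54% called lower. Of the 3 amylase genes 0 were called by DESeq2, 0 had an unadjusted p under 0.05, and edgeR, which fitted *Amy-p* and *Amy-d*, called 0. Over all tested genes DESeq2 called 14.5% and edgeR 13.9% in either direction. The median log2 fold change of the 12 genes was 2.95, beside 0.02 over all tested genes.

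The genes that rose were all of the Mal-A cluster of maltases on chromosome 2R, the enzymes that split the maltose released by amylase. *Mal-A1* had 104.7, 46.9 and 29.5 normalized counts on CD and 951.0, 323.4 and 1367 on SD, with no overlap, and a difference of 3.86 ± 0.76 (log2, SE; DESeq2 q = 6.7e-06). *Mal-A7* had 10.9, 4.54 and 0.984 normalized counts on CD and 441.6, 156.6 and 559.8 on SD, a difference of 6.10 ± 0.93 (log2, SE; DESeq2 q = 2.1e-09). *Mal-A2*, *Mal-A3*, *Mal-A4*, *Mal-A6* and *Mal-A8* had log2 fold changes of 2.67, 4.92, 3.35, 3.23 and 5.44, with DESeq2 q from 1.1e-06 for *Mal-A3* to 0.0344 for *Mal-A8*. The calls of *Mal-A2*, *Mal-A4* and *Mal-A8* were lost when SD replicate 3 was left out, with DESeq2 q of 0.136, 0.585 and 0.469, which left 4 called. *Mal-A4* was also not called without SD replicate 1 (DESeq2 q = 0.191), nor *Mal-A8* without SD replicate 1 or 2 (DESeq2 q = 0.225 and 0.253). The Mal-A genes are paralogs, and reads shared among them would also be left out of their counts. In the same libraries the listed markers of midgut, testis and male accessory gland had median log2 fold changes of 4.97, 6.89 and 6.49. The part of RNA from these tissues in the Mal-A counts was not tested.

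The other 5 genes of the list did not pass the threshold. *Mal-A5*, in the same cluster, had 665.5 ± 75.5 normalized counts on CD and 589.0 ± 77.0 on SD (SD of replicates, n = 3 each; DESeq2 q = 0.712), and *Mal-B2* had 1209 ± 131 and 1119 ± 122 (DESeq2 q = 0.847). *Mal-B1* differed by 0.96 ± 0.50 (log2, SE; DESeq2 q = 0.279). *Treh*, which encodes trehalase, the enzyme that splits trehalose into glucose, had the most counts of the list, 8342 ± 406 and 7643 ± 256 normalized counts (DESeq2 q = 0.516). *tobi*, a glucosidase gene known as a target of brain insulin, spread further within each diet than amylase, with 914.0, 722.8 and 56.1 normalized counts on CD and 1433, 198.7 and 501.7 on SD (DESeq2 q = 0.973).

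**Figure D3:**
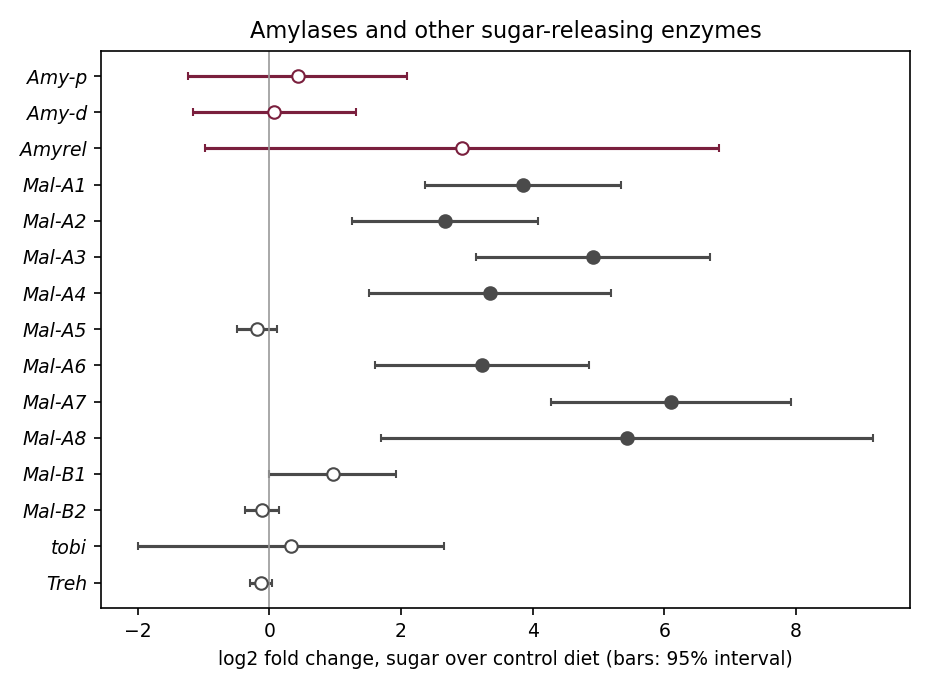
Log2 fold change of SD over CD for the 3 amylase genes (red) and the 12 listed enzymes (gray) from the DESeq2 fit over all genes, with 95% intervals as bars and filled points at q under 0.1. The 7 filled points are all Mal-A genes, between 2.67 and 6.10, while *Amy-p* and *Amy-d* sit at 0.43 and 0.08.

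Set against the amylase pair, the log2 ratio of *Mal-A1* to summed *Amy-p* and *Amy-d* counts was −3.22 ± 0.36 on CD and 0.39 ± 0.89 on SD (SD of replicates, n = 3 each). For *Mal-A7* it was −6.79 ± 0.56 and −0.76 ± 0.78. These genes were picked after their own diet difference was seen, so the ratios are a description. For *tobi*, which was not called, the ratio was −0.56 ± 1.32 on CD and −0.13 ± 0.44 on SD.

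Genes that are known to act on amylase or on sugar sensing were examined next, and 12 of the 13 listed were matched in the tables. Of these, 2 were called, both higher on SD, or 16.7%, a share near the 14.0% of all tested genes called higher, and the median log2 fold change was 0.07. *GATAe*, a GATA factor of the midgut, had 5.47, 3.02 and 0 normalized counts on CD and 13.0, 62.8 and 108.5 on SD (DESeq2 q = 2.0e-05). *cad*, a homeobox factor of the gut, had 15.6, 9.07 and 12.8 on CD and 55.8, 83.4 and 186.9 on SD (DESeq2 q = 1.2e-07). Their highest value was in SD replicate 3, while the pair of amylase genes was highest in SD replicate 1.

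Genes of the sugar-sensing and Activin pathways, which are known to lower amylase on sugar, did not pass the threshold. *Mondo*, the sugar-sensing transcription factor, differed by −0.03 ± 0.13 (log2, SE; DESeq2 q = 0.979), and its partner *bigmax* 0.08 ± 0.21 (log2, SE; DESeq2 q = 0.96). *sug*, a zinc finger repressor downstream of *Mondo*, had 786.6, 766.7 and 939.0 normalized counts on CD and 775.3, 1226 and 1302 on SD (DESeq2 q = 0.207). *daw*, an Activin-like ligand, had 0.17 ± 0.21 (log2, SE; DESeq2 q = 0.845), its receptor *babo* −0.01 ± 0.09 (log2, SE; DESeq2 q = 0.997) and the signal transducer *Smox* −0.17 ± 0.10 (log2, SE; DESeq2 q = 0.387). The remaining 4 genes, *put*, *srp*, *Akh* and *AkhR*, did not pass either.

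Markers of the midgut, the main source of amylase in flies, stand beside these values. Their sum over 12 enterocyte genes, led by *Myo31DF*, was 1114, 948.1 and 809.1 normalized counts in CD replicates 1 to 3 and 2524, 3848 and 8174 in SD replicates 1 to 3. *Myo31DF*, a myosin gene, made up most of the CD sum and was not called (DESeq2 q = 0.974). Without it, a sum added after the values were seen, the markers summed to 295.3, 48.4 and 24.6 on CD and 1615, 3063 and 7312 on SD. Of the 12 genes 8 were called, each higher on SD, against 14.0% of all tested genes called higher, and the median log2 fold change was 4.97. In 10 of 12 every SD library lay above every CD library, which held for 19.9% of all tested genes. The amylase pair had 849.2, 591.3 and 239.2 normalized counts on CD and 1187, 301.9 and 524.9 on SD. Within CD the pair and the markers gave the same order of libraries, and within SD the pair was highest in replicate 1, where the markers were lowest. The part of midgut RNA, or of the reproductive tissues above, in the amylase and Mal-A counts was not tested.

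Among the 11486 genes with a mean of at least 10 normalized counts, the library profile of each copy was matched by its root mean square (RMS) difference in centered log2(normalized count + 1) over the 6 libraries. *Amy-p* and *Amy-d* were 0.38 apart. Nearest to *Amy-d* were *lncRNA:CR45156*, *CG9119*, *smp-30*, *tRNA:Leu-CAA-2-3* and *Gnmt*, at 0.18 to 0.19. *smp-30* encodes a protein of the senescence marker 30 (regucalcin) family, and *Gnmt* encodes glycine N-methyltransferase, which consumes the methyl donor S-adenosylmethionine. Nearest to *Amy-p* were *lncRNA:CR45921*, FBgn0030737, *CG9119*, *Cyp308a1*, a cytochrome P450 gene, and *CG6034*, at 0.34 to 0.42.

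*CG9119* was common to both sets, with 604.6, 518.7 and 171.3 normalized counts on CD and 713.0, 225.0 and 307.0 on SD. *smp-30* had 579.6, 494.5 and 281.5 on CD and 695.4, 278.4 and 319.6 on SD, and *Gnmt* 278.1, 234.4 and 134.8 on CD and 418.3, 152.8 and 235.4 on SD. *CG9119* and *smp-30* had the same 3 highest libraries as *Amy-d*, SD replicate 1 and CD replicates 1 and 2, while for *Gnmt* CD replicate 2 and SD replicate 3 were level. *Mal-A1* was far off, 1.78 from *Amy-p* and 1.98 from *Amy-d*. The copies differed for *tobi*, which was 0.65 from *Amy-p*, at rank 82 by closeness, and 0.99 from *Amy-d*, at rank 9640.

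**Figure D4:**
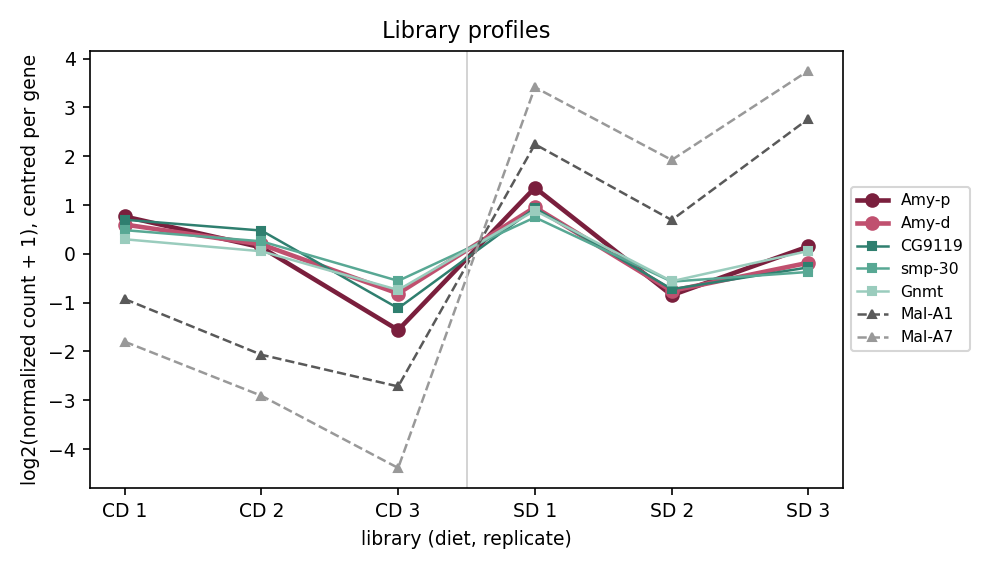
Centered log2(normalized count + 1) of *Amy-p*, *Amy-d*, 3 of the genes nearest to them (*CG9119*, *smp-30*, *Gnmt*) and 2 maltase genes (*Mal-A1*, *Mal-A7*, dashed) in the 6 libraries, with CD left and SD right of the line. The amylase profiles have libraries above and below 0 within each diet, while the maltases lie below 0 in every CD library and above 0 in every SD library.

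Genes next to the amylase loci were read to ask whether their surroundings differed between diets. Of the 12 nearest genes, 3 on each side of each locus, 2 were called, both higher on SD, with a median log2 fold change of 0.05. This share of 16.7% is near the 14.0% of all tested genes called higher. *CG15605*, whose annotated end lies 41 bases past that of *Amy-d* on the other strand, had 0.781, 3.02 and 0 normalized counts on CD and 8.37, 30.9 and 18.4 on SD, a difference of 4.14 ± 1.19 (log2, SE; DESeq2 q = 0.0050). On unstranded counts it was not called (log2 fold change 1.90, DESeq2 q = 0.453), nor without SD replicate 2 (DESeq2 q = 0.153). *CG34457*, 17627 bases from *Amyrel*, had at most 1.97 normalized counts on CD and 39.0, 55.3 and 106.5 on SD, a difference of 5.61 ± 0.89 (log2, SE; DESeq2 q = 1.0e-08).

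Of the other neighbors, *GstS1*, which encodes a glutathione transferase, had 1311 ± 167 normalized counts on CD and 1667 ± 329 on SD (SD of replicates, n = 3 each; DESeq2 q = 0.195), and was called only without SD replicate 2 (DESeq2 q = 0.057). *Alk*, a receptor tyrosine kinase gene, *CG5065* and *Picot*, a phosphate transporter gene, had log2 fold changes between −0.08 and −0.04, with DESeq2 q from 0.811 to 0.969. Between *Amy-p* and *Amy-d* lie the serpin gene *Spn53F* and *asRNA:CR45272*, with at most 8.44 and 6.56 normalized counts in any library, and neither was called (DESeq2 q = 0.493 and 0.931). *gprs* was not called either (log2 fold change −0.06, DESeq2 q = 0.933).

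**Figure D5:**
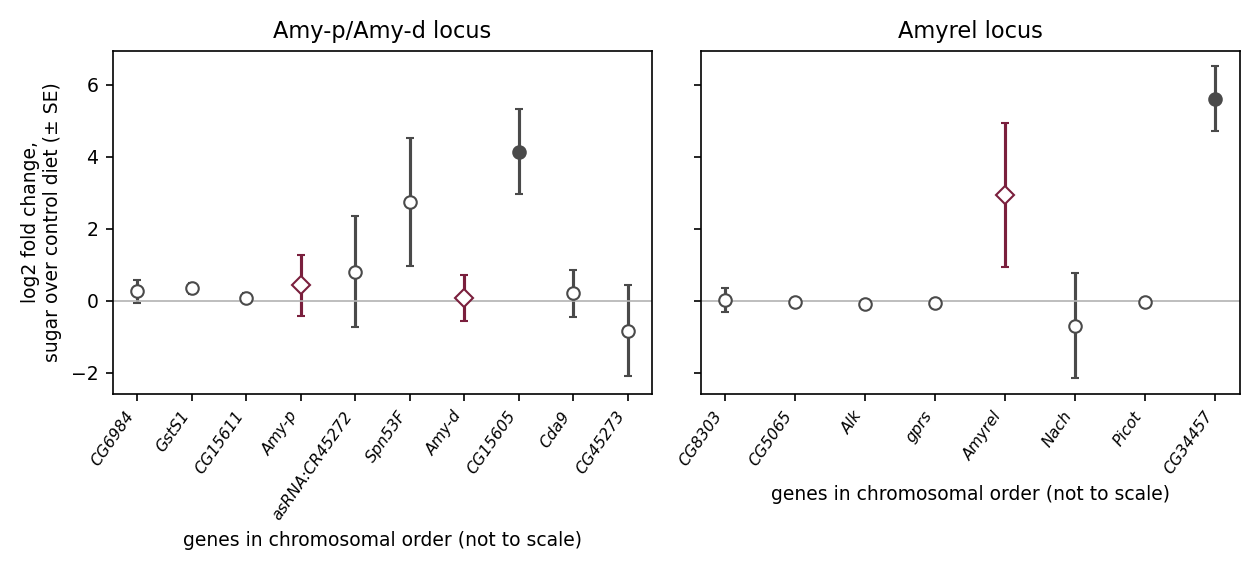
Log2 fold change of SD over CD (± SE) for the genes at the *Amy-p*/*Amy-d* locus (left) and the *Amyrel* locus (right), in chromosomal order and not to scale; diamonds are amylase genes, circles their neighbors, and filled points have q under 0.1. Only *CG15605* at 4.14 and *CG34457* at 5.61 are filled among the genes shown.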

How the data were processed

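The authors discarded reads with a quality score below 30, aligned the rest to dm6 (BDGP6) with STAR and counted reads per gene, and they deposited raw counts. The methods name HTSeq, and the 4-column layout is that of STAR. Aligner version, annotation release and duplicate removal are not given in the sources used here. Sense counts (the third column) totalled 12617127 to 24076315 per library, and intervals and floors cover counting error only. Libraries of 1 diet differed by more than sampling noise (chi-square per degree of freedom 19.4 to 56.4). All 6 were kept, and this value does not bear on their quality. The labels call the samples biological replicates.

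SD was compared with CD in DESeq2 1.42.0 (R 4.3.3; Wald test, two-sided), fitted over all genes with at least 1 count, with no block and Benjamini-Hochberg q under 0.1, the cutoff of the study. edgeR 4.0.16 (quasi-likelihood), TMM factors, a filter of 10 counts in 3 libraries, unstranded counts, summed copies, q under 0.05, no Cook filter, a replicate block and leaving out each library were alternatives. Single ratios were tested by exact permutation of libraries. Fits were tested on simulated data with large changes in genes of higher counts than *Amyrel*. That test does not bear on *Amyrel* or on small changes.

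Genes named are the members, all called genes and up to 4 most abundant of the digestion, regulator and flanking lists, the 5 genes nearest in profile, and some others chosen after their values were seen. The members, lists and markers were chosen with earlier results of these data known. Symbols were matched to 17215 of 17489 identifiers, and coordinates come from Ensembl release 115 (dm6). *Med* and *para* had no match. No sequences are shown.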

Additional observations from a re-analysis of the deposited data

How the results depend on the processing

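Of the amylase genes, 0 were called under each alternative tried. *Amyrel* was left out of the edgeR fit and of the fit with 10 counts in 3 libraries, so these do not bear on it. The sign of the pair was not stable when 1 library was left out, and ranges over the 6 such fits were −0.33 to 0.98 for *Amy-p*, −0.55 to 0.41 for *Amy-d*, −0.44 to 0.69 for their sum and 1.27 to 4.38 for *Amyrel*. The share of *Amy-p* differed by 2.80 to 10.6 percentage points and the *Amyrel* ratio by 1.35 to 1.89, but that ratio differed by 0.06 on unstranded counts (exact permutation p = 1) and by 1.198 with 1 count added in place of 0.5. Called genes ranged from 4 to 7 for digestion, 2 to 3 for regulators, 8 to 9 for midgut markers and stayed at 2 for flanking genes, which fell to 1 with edgeR, with 10 counts in 3 libraries and on unstranded counts. *CG15605* had too few counts to enter the edgeR fit or the filtered fit. For unstranded counts and for the digestion count of 4, without SD replicate 3, the cause was not tested. Signs also turned for *babo*, to 0.0065 with edgeR and 0.0014 with TMM factors, and, over the fits without 1 library, for *tobi* (−0.69 to 0.87), *Mondo* (−0.15 to 0.0551), *babo* (−0.0275 to 0.0152), *CG5065* (−0.12 to 0.0222) and *Picot* (−0.13 to 0.0164). Same-numbered libraries had correlated deviations of 0.033, −0.037 and −0.10, so the numbers show no pairing. With the replicate block, *Amy-p* had a log2 fold change of 0.45 (DESeq2 q = 0.982), *Amy-d* 0.02 and *Amyrel* 2.72, and 0 were called. Depth limits *Amyrel* most, with 17 counts in 6 libraries.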

Other observations

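*Lsp2*, a larval serum protein gene of the fat body, had 10962, 10070 and 84.6 normalized counts in CD replicates 1 to 3 and 10702, 49.7 and 38.7 in SD replicates 1 to 3. Its 3 high libraries, seen after the values were known, were also the 3 highest for *Amy-d*, and the third highest for *Amy-p* was another. Over the 6 libraries the centered log2 profile of *Lsp2* was 3.16 (RMS) from *Amy-p* and 3.25 from *Amy-d*, because its range was far wider. DESeq2 gave no p for *Lsp2*, whose values its outlier filter set aside.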
